A study of Drosophila melanogaster with 12 samples.

Results

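The 6 libraries of type II neuroblasts taken at 36 and 50 h after larval hatching (the middle ages) were compared with the 6 taken at 24 and 84 h (the ends), to find transcripts that stood higher or lower in mid larval life than at both its start and its close. Members were the genes whose 6 middle libraries all lay above, or all below, the 6 end libraries in CPM (gene counts scaled to a common library size, with TMM factors). That held for 72 of 7978 tested genes, 40 above (0.501%) and 32 below (0.401%). Of these, 23 above (0.288%) and 23 below (0.288%) also passed the test of the contrast, at an adjusted p under 0.05, and 45 of these 46 genes are described here. Without the third 24 h library 39 high genes met both conditions. The lack of overlap chose them and is given as a description.

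Type II neuroblasts are stem cells in the larval fly brain that renew themselves and give off intermediate progenitors, which divide several more times before they make neurons and glia. During larval life neuroblasts pass through a fixed order of temporal states, known for a falling level of the RNA-binding protein Imp, a rising level of the RNA-binding protein Syp and, in between, the onset of a response to the steroid hormone ecdysone. The series title names gradients of temporal factors set off by the orphan nuclear receptor Seven-up (svp), so the question here is which genes peak or dip while that transition takes place.

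All groups were Drosophila melanogaster larval central nervous system cells with no treatment named, 3 libraries per age, each from a small pool of GFP-labelled cells sorted from dissected, enzyme-digested brains and amplified before library construction. No source used here gives the genotype, the strain, the sex or the driver of the GFP label. Whether same-age libraries go back to separate dissections is not stated, so the p-values reflect only the spread among these libraries, and that spread could be technical. The neuroblast genes dpn (136 to 467 CPM), wor (313 to 628 CPM) and mira (394 to 716 CPM) were present in every library, and ase, which type II neuroblasts are known to lack, lay between 2.25 and 10.5 CPM. The neuron marker elav was also present, at 165 to 351 CPM.

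Gene counts per library ranged from 4512098 to 8391731, so that 3 counts corresponded to 0.357 to 0.665 CPM. The SE and SD values given here include the spread among libraries as well as counting error. The labels give 101 to 132 sorted cells for the middle libraries and 93 to 105 for the ends. All libraries received the same ERCC spike-in mix, and gene counts per ERCC count were 224 to 832 at the middle ages and 106 to 432 at the ends. By age the ranges were 105.5 to 202 at 24 h, 223.5 to 252.5 at 36 h, 252.6 to 831.9 at 50 h and 166 to 431.5 at 84 h. The medians were 124.1, 249.2, 288.6 and 292.5, and the value of 831.9 was that of the first 50 h library. Scaling to ERCC totals moved the median log2 difference of all tested genes from 0.01 to 0.67. Every CPM here is therefore relative to the gene counts of its library after TMM scaling (factors 0.7985 to 1.25). A difference in cell number and one in RNA per cell cannot be told apart. Under ERCC scaling the calls were 76 higher and 2 lower genes in place of 111 higher and 126 lower.

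Over all tested genes, edgeR's quasi-likelihood test called 111 genes higher (1.39%) and 126 lower (1.58%) at the middle ages, and 1256 genes had an unadjusted p under 0.05. Without the third 50 h or the third 36 h library 72 and 75 genes were called lower. The contrast takes mean log2 levels, so a gene that climbs early and stays up, or falls only late, can be called without peaking. Of the 111 called higher, 67 had both middle means above both end means, and of the 126 called lower, 84 had both below. The 46 members are the stricter subset in which no single library crossed over. Their contrast values had a median size of 1.65 on the log2 scale (3.14-fold) for the 23 high genes and 0.69 (1.61-fold) for the 23 low genes, beside a median size of 0.26 over all tested genes. A size above that median follows from the choice of members by the same contrast and is a description. Of the 46, 43 had a mean of at least 10 CPM in their higher arm. At least a 2-fold difference was seen in 18 of the high and 4 of the low genes.

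**Figure D1:**
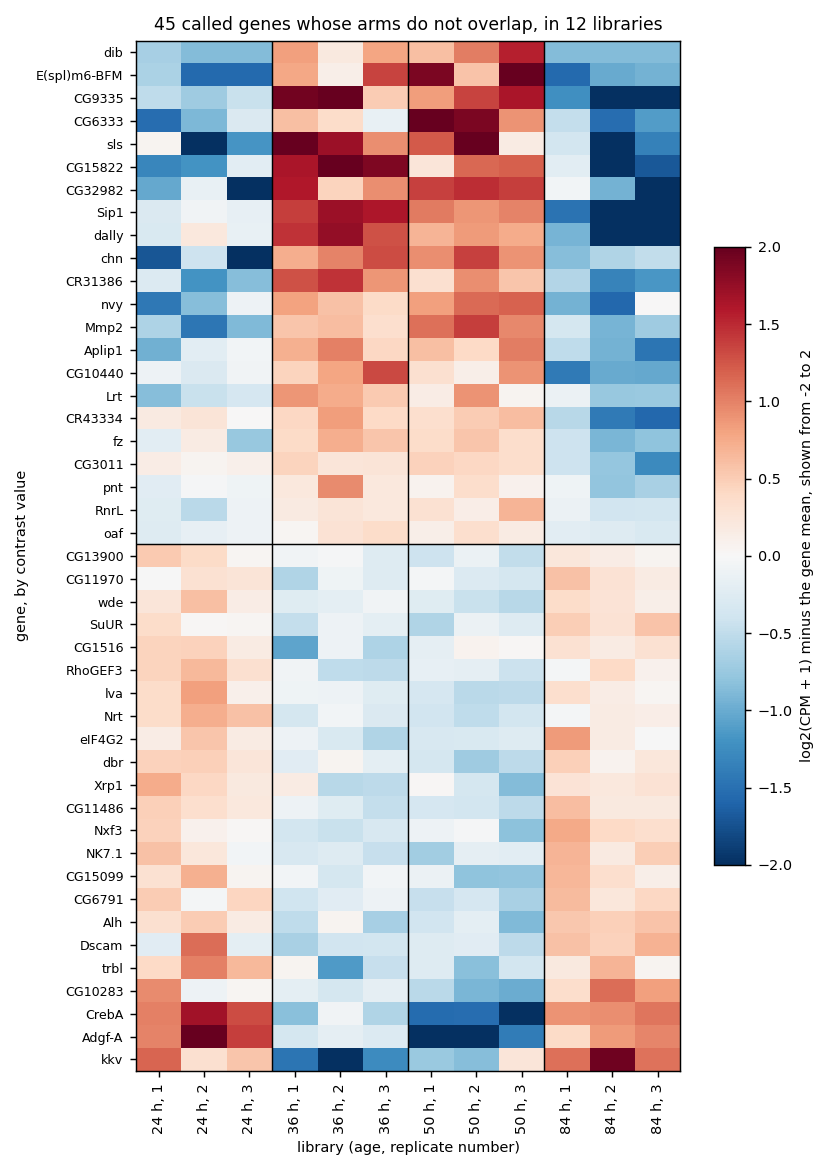
Levels of 45 of the 46 called genes whose arms did not overlap (rows, ordered by contrast value) in the 12 libraries (columns, by age and replicate number), as log2(CPM + 1) minus the gene's mean, with colour limited to values from -2 to 2. In each row of the 22 high genes shown the 36 and 50 h values all lie above (redder than) the end values, and in each row of the 23 low genes all below (bluer), under TMM scaling, up to the colour limits; with ERCC scaling 13 of the low genes have a contrast above 0.

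In 7 of the 46 genes each middle age differed from each end in all 4 pairwise tests, 6 of them higher (0.0752% of tested genes) and 1 lower (0.0125%). The 6 were Sip1, Mmp2, chn, CR31386, CG9335 and Lrt, and the 1 lower gene was CrebA. Every other member missed the threshold in 1 or more of these tests. The pairwise tests used the values that chose the members, so they describe the genes and give no separate support. Sip1 (FBgn0010620, SRY interacting protein 1, listed under the current symbol CG10939) encodes a PDZ-domain scaffold. Its level was 103, 119 and 111 CPM at 24 h, 328, 414 and 386 CPM at 36 h, 259, 232 and 251 CPM at 50 h and 44.4, 19.5 and 14.6 CPM at 84 h. The nearest middle and end libraries were 232 and 119 CPM, and 84 h was below 24 h. The mean was highest at 36 h, without a call between 50 and 36 h (adjusted p = 0.188, edgeR). The contrast was 2.50 ± 0.19 (log2 ± SE, 5.66-fold, adjusted p = 2.61e-08, edgeR), the smallest adjusted p among the members.

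Mmp2 (FBgn0033438), a matrix metalloproteinase that is anchored at the cell surface, stood at 64.99, 36.4 and 53.8 CPM at 24 h, 148, 155 and 127 CPM at 36 h, 217, 262 and 196 CPM at 50 h and 78.8, 52.4 and 60.8 CPM at 84 h. The ends shared one range, 36 h was above it and 50 h higher again, without a call between 50 and 36 h (adjusted p = 0.0746, edgeR). The contrast was 1.64 ± 0.15 (3.12-fold, adjusted p = 2.56e-07, edgeR). The zinc-finger transcription factor chn (FBgn0015371), known from sensory organ and eye development, was low throughout, at 2.09, 6.60 and 1.28 CPM at 24 h, 15.8, 19.1 and 24.1 CPM at 36 h, 18.2, 25.2 and 18 CPM at 50 h and 4.64, 5.71 and 6.25 CPM at 84 h. Its 6 middle libraries were all above 15 CPM and its 6 end libraries all below 7 CPM, a 4.62-fold difference (2.21 ± 0.35 log2, adjusted p = 3.82e-04, edgeR).

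CR31386 (FBgn0051386) is annotated as a long non-coding RNA. It was measured at 387, 204 and 260.5 CPM at 24 h, 1136, 1276 and 870.3 CPM at 36 h, 587, 894 and 694 CPM at 50 h and 312, 186 and 208 CPM at 84 h. The mean was highest at 36 h, without a call between 50 and 36 h (adjusted p = 0.163, edgeR). The fold difference was 3.44 (1.78 ± 0.17 log2, adjusted p = 4.75e-07, edgeR). In RefSeq's gene order it lies next to CR43283 (cherub), a long non-coding RNA known to be segregated asymmetrically by dividing type II neuroblasts, with 0 genes between them. Cherub took 9.43 to 14.0% of gene counts at 24 h and 13 to 19.4% at 36 h. It took 10.3 to 12.3% at 50 h, within the 24 h range, and 4.17 to 7.84% at 84 h. Its contrast was called higher, by 1.67-fold (adjusted p = 0.0497, edgeR), with arms that overlapped. The call was lost in 9 of 12 fits that left out a library (adjusted p up to 0.152). No source used here gives the strand setting of the counting, so a share of reads counted for the neighbour cannot be told apart from the gene's own.

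CG9335 (FBgn0032895, current symbol twit) encodes a small Ly6-type protein. It stood at 6.87, 5.84 and 7.25 CPM at 24 h, 41.8, 45.7 and 14.98 CPM at 36 h, 19.04, 27.5 and 33.8 CPM at 50 h and 3.79, 0.451 and 1.04 CPM at 84 h. Every middle library was above every 24 h library, and the 84 h libraries were below those of 24 h, giving 8.84-fold (3.14 ± 0.38 log2, adjusted p = 1.48e-05, edgeR; 13.5-fold without the first 84 h library). Lrt (FBgn0034540), a leucine-rich repeat membrane protein known from tendon cells, was at 52.8 to 95.5 CPM in the middle libraries and 27.9 to 46.8 CPM at the ends. Its difference was 2.15-fold (1.11 ± 0.18 log2, adjusted p = 6.51e-04, edgeR).

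**Figure D2:**
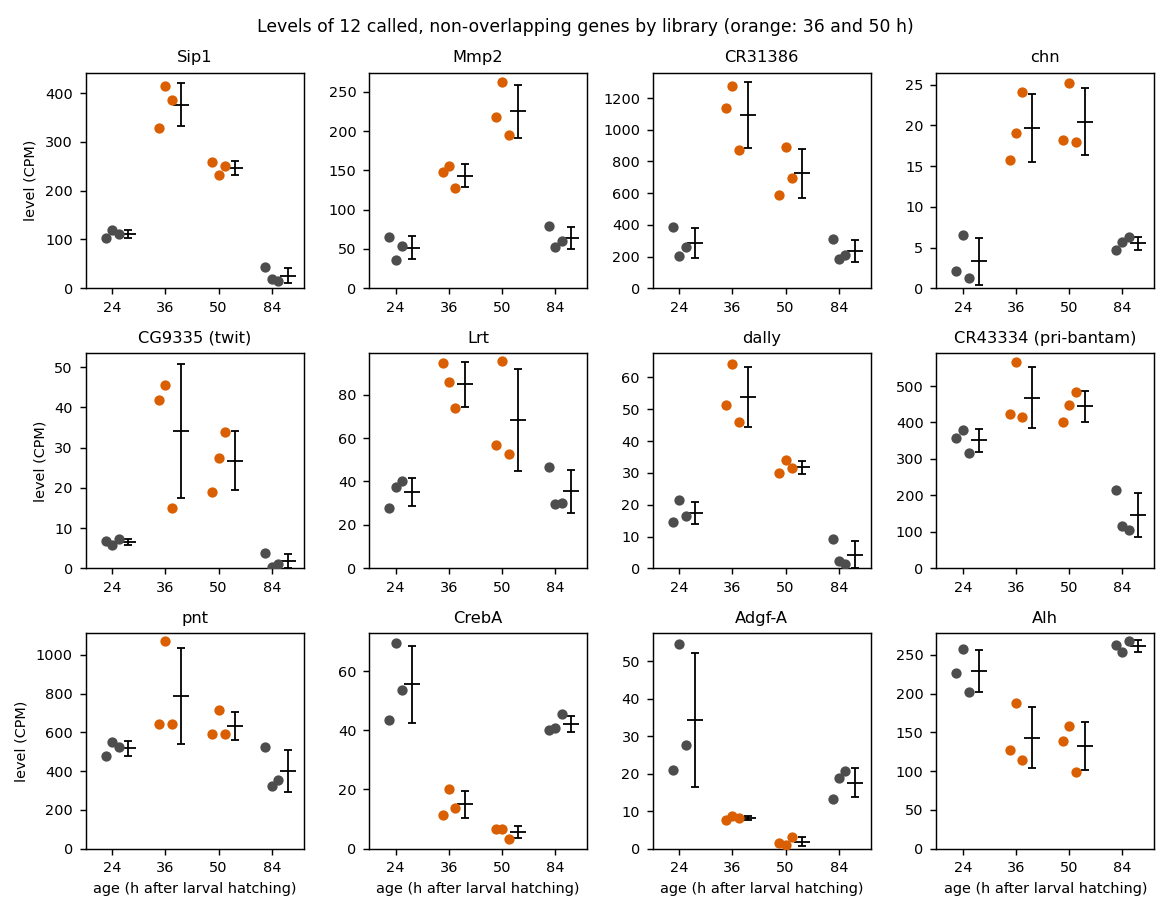
CPM of 12 of the 46 genes in each library against age, with the mean and SD of the 3 libraries of an age drawn beside the points; 36 and 50 h are orange. In Sip1, dally and CR43334 the 84 h libraries lie below the 24 h ones, and in CrebA and Adgf-A the 50 h libraries lie below the 36 h ones.

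Among the other high genes, several act at the cell surface or in signalling. Dally (FBgn0263930), a heparan sulfate glypican that shapes Dpp and Wingless gradients, was at 14.6, 21.4 and 16.4 CPM at 24 h, 51.4, 64.4 and 45.9 CPM at 36 h, 30.01, 33.99 and 31.4 CPM at 50 h and 9.12, 2.25 and 1.39 CPM at 84 h. The highest level was at 36 h and the lowest at 84 h. The contrast was 2.26 ± 0.30 (4.8-fold, adjusted p = 5.70e-05, edgeR), and 7.25-fold without the first 84 h library. Both 36 and 50 h were called against 84 h, but neither was against 24 h (adjusted p = 0.0575 and 0.152, edgeR). The Wnt receptor fz (FBgn0001085) ran at 32.2 to 41.8 CPM in the middle libraries against 12.8 to 27.9 CPM at the ends, 1.98-fold (0.99 ± 0.21 log2, adjusted p = 0.00817, edgeR). For fz as well, 36 and 50 h were called against 84 h but not against 24 h (adjusted p = 0.201 and 0.126, edgeR).

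The ETS factor pnt (FBgn0003118), the nuclear effector of EGFR signalling and a determinant of type II identity, was at 476, 550 and 525 CPM at 24 h, 646, 1072 and 645 CPM at 36 h, 589.8, 716 and 590 CPM at 50 h and 526, 323 and 356 CPM at 84 h. One 36 h library stood apart from the other 5 middle libraries, and the nearest middle and end libraries were 590 and 550.0 CPM. The difference of 1.55-fold (0.63 ± 0.14 log2, adjusted p = 0.0113, edgeR) fell short of the threshold without that library, the second replicate at 36 h (adjusted p = 0.0531). Of the 4 pairwise tests only 36 h against 84 h was called (adjusted p = 0.00218, edgeR). Against 24 h the adjusted p was 0.158 at 36 h and 0.353 at 50 h. Among the 13 other neuroblast identity genes, 0 were called higher and 1, scrt, was lower, beside 1.39% and 1.58% of all tested genes.

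CR43334 (FBgn0286827), which RefSeq also lists as pri-bantam, the primary transcript of the growth-promoting microRNA bantam, was at 359, 378 and 317 CPM at 24 h, 423, 566 and 415 CPM at 36 h, 401, 448 and 484 CPM at 50 h and 215, 118 and 105 CPM at 84 h. The middle libraries lay just above 24 h and well above 84 h, and the contrast was 1.01 ± 0.15 (2.01-fold, adjusted p = 1.52e-04, edgeR). Both 36 and 50 h were called against 84 h but not against 24 h (adjusted p = 0.364 and 0.288, edgeR). E(spl)m6-BFM (FBgn0002632), a Bearded-family gene known as a Notch target, had 219 counts over the 6 middle libraries and 12 over the 6 end libraries. Its middle libraries were at 2.17 to 16.02 CPM, its highest end library was at 0.896 CPM and 3 of the 6 end libraries were at 0 (adjusted p = 0.00224, edgeR). It passed the filter on low counts only through its middle libraries, so that p-value is no separate support.

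A second group belongs to metabolism and DNA precursor supply. RnrL (FBgn0011703), the large subunit of ribonucleotide reductase, was at 165 to 241 CPM at the middle ages and 103 to 141 CPM at the ends, 1.5-fold (0.59 ± 0.12 log2, adjusted p = 0.00751, edgeR). CG3011 (Shmt), serine hydroxymethyltransferase of one-carbon metabolism, was at 90.9 to 105 CPM at the middle ages (1.64-fold, adjusted p = 0.00462, edgeR). It was at 79.6 to 84.3 CPM at 24 h and 30.9 to 56.8 CPM at 84 h. Both 36 and 50 h differed from 84 h (adjusted p = 5.925e-04 and 8.627e-04, edgeR) but not from 24 h (0.644 and 0.31).

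Dib (FBgn0000449), the cytochrome P450 disembodied of ecdysone synthesis that is best known from the prothoracic gland, was at the limit of detection. It had 10, 5 and 11 counts in the 36 h libraries, 11, 13 and 22 counts in the 50 h libraries, 1 count in a single 24 h library and 0 in the other 5 end libraries. Counts were present in every middle library and nearly absent from the ends (adjusted p = 0.0049, edgeR). No fold is given at such counts. Dib passed the filter on low counts only through its middle libraries, so its p-value is no separate support for the pattern. CG6333 (1.97 to 14.4 CPM at the middle ages, 0.149 to 1.71 CPM at the ends) and CG32982 (6.74 to 16.2 against 0 to 4.47 CPM) were also at low levels. CG6333 lost the call without the first 50 h library (adjusted p = 0.059, edgeR), and CG32982 in 6 of the 12 leave-outs, one or more at each age (adjusted p 0.0518 to 0.0853). CG6333 too passed the filter only through its middle libraries.

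Sls (FBgn0086906), the titin-like protein of the muscle sarcomere, was at 11.3 to 44.9 CPM in the middle libraries and 0.150 to 10.5 CPM at the ends (6.72-fold, adjusted p = 0.0326, edgeR). CG15822, which has 1 gene between it and sls in RefSeq's order (antisense RNAs not counted), was at 15.5 to 61.5 against 0.150 to 11.1 CPM (6.3-fold, adjusted p = 0.0139, edgeR). Sls lost the call without the second or the third 24 h, the first or second 50 h or the third 84 h library (adjusted p 0.0519 to 0.129). CG15822 lost it without the first or second 24 h, the second 50 h or the third 84 h library (adjusted p 0.0529 to 0.102), and its fold was 10.6 without the first 84 h library. The gene between them, zormin, a titin-like protein of the Z-disc, was at 24.8 to 66.5 CPM at the middle ages and 0.451 to 14.6 CPM at the ends, without overlap but not called (adjusted p = 0.0603, edgeR).

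The summed level of the 10 muscle markers, sls included, was 69.6 to 121 CPM at the middle ages and 35.5 to 70.6 CPM at the ends. The 5 muscle markers that passed the filter on low counts all had contrasts above 0 (median 0.71, and 1.74 with ERCC scaling), with sls the only one called. Of the others on the list, Mef2, which is also expressed in neurons, had means of 44.1 to 49.8 CPM, and bt had means of 2.21 to 13.5 CPM by age. The sarcomere genes Mhc, Mlc1, Mlc2, Act57B, up, wupA and Tm2 had means of at most 2.50 CPM at any age, with wupA and Mlc1 at 0 at 24 and 36 h. The part of muscle cells in the sls value was not tested.

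The remaining high genes were nvy (the fly ETO/MTG corepressor, 3.14-fold, adjusted p = 0.00413), Aplip1 (a JIP1-type scaffold for axonal transport, 2.87-fold, adjusted p = 0.0102), CG10440 (twz, 2.68-fold, adjusted p = 9.80e-04) and oaf (out at first, 1.36-fold, adjusted p = 0.0436), all by edgeR. Aplip1 and CG10440 were called at 36 and 50 h against 84 h. Against 24 h they were not called (adjusted p = 0.219 and 0.0875 for Aplip1, 0.132 and 0.185 for CG10440, edgeR). Oaf was the least stable of the members, called in 2 of the 12 fits that left out a library, those without the third 24 h or the first 36 h one (adjusted p 0.0586 to 0.132 in the others). The highest mean was at 36 h in 14 of the 23 high genes and at 50 h in 9, with 0 of the 23 called between 50 and 36 h.

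Of the 23 genes lower at the middle ages, 10 stayed below 0 under ERCC scaling, while 13 (CG13900, CG11970, wde, SuUR, CG1516, RhoGEF3, lva, eIF4G2, dbr, Xrp1, CG11486, Nxf3 and CG15099) then had contrasts between 0.0356 and 0.22 on the log2 scale. All 23 lay below the median of all genes under that scaling too, and 0 of them were called by edgeR (3 at an unadjusted p under 0.05). The direction "lower" is therefore relative to the other transcripts of the same libraries.

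CrebA (FBgn0004396), a bZIP factor that drives genes of the secretory pathway, was the clearest of them. It stood at 43.5, 69.4 and 53.8 CPM at 24 h, 11.3, 20 and 13.6 CPM at 36 h, 6.61, 6.71 and 3.36 CPM at 50 h and 40.1, 40.9 and 45.3 CPM at 84 h. The 36 h libraries were below every end library, the 50 h ones were lower again, and the ranges at 24 and 84 h overlapped. The contrast was -2.40 ± 0.23 (5.28-fold, adjusted p = 4.26e-07, edgeR), and it was -1.70 with ERCC scaling (adjusted p = 0.0845).

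Adgf-A (FBgn0036752), a secreted adenosine deaminase growth factor, was at 20.9, 54.7 and 27.5 CPM at 24 h, 7.56, 8.70 and 8.08 CPM at 36 h, 1.45, 0.839 and 3.16 CPM at 50 h and 13.2, 18.8 and 20.7 CPM at 84 h. All 50 h libraries were under 3.5 CPM, the 36 h ones lay between them and the ends, and the difference was 6.36-fold (-2.67 ± 0.33 log2, adjusted p = 2.07e-05, edgeR). The chitin synthase kkv (FBgn0001311), which passed the filter on low counts only through its end libraries, was a low gene. It was at 0.217 to 5.14 CPM in the middle libraries and 5.53 to 19.1 CPM at the ends (6.43-fold, adjusted p = 0.00117, edgeR). These 3 and the uncharacterised CG10283 (21.4 to 38.4 against 40.4 to 95.6 CPM) were the 4 low genes with at least a 2-fold difference.

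The pseudokinase trbl (FBgn0028978), which promotes degradation of the mitotic phosphatase String, was at 54.4, 83.5 and 65.1 CPM at 24 h, 42.5, 18.3 and 29.6 CPM at 36 h, 34.2, 22.7 and 31.6 CPM at 50 h and 47.3, 66.4 and 42.7 CPM at 84 h. The nearest middle and end libraries, the first replicate at 36 h and the third at 84 h, were almost equal, and the contrast was -0.99 ± 0.20 (1.99-fold, adjusted p = 0.00611, edgeR). The gene of its target, stg, was at 315 ± 22.1 CPM at 24 h, 341 ± 45.5 CPM at 36 h, 840.3 ± 127 CPM at 50 h and 494 ± 61.99 CPM at 84 h. It was called higher by 1.36-fold (adjusted p = 0.0348, edgeR), a call lost in 8 of the 12 leave-outs (adjusted p up to 0.112). Only its 50 h mean stood above both end means, and a link to trbl was not tested.

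Dscam (FBgn0033159), a homophilic adhesion receptor of the immunoglobulin family, was at 65.8 to 88.3 CPM in the middle libraries and 88.4 to 227 CPM at the ends, 1.85-fold (-0.89 ± 0.19 log2, adjusted p = 0.00817, edgeR). Its 24 h libraries were at 88.4, 227 and 90.7 CPM and its 50 h libraries at 86.5, 88.3 and 72.2 CPM. Neither 36 nor 50 h was called against 24 h (adjusted p = 0.136 and 0.0646, edgeR). Without the second 24 h library the difference was 1.51-fold. Nrt (FBgn0004108, neurotactin), also an adhesion protein, was at 179.8 to 248 against 250.5 to 423 CPM, 1.57-fold (-0.65 ± 0.11 log2, adjusted p = 8.30e-04, edgeR). With Ten-m (2.12-fold) and sli (1.94-fold), whose arms overlapped, they made up the 4 called members of 35 tested axon guidance and adhesion genes, all 4 lower (0 higher) under TMM scaling. Of all tested genes 1.58% were called lower and 1.39% higher. The median of the list was -0.13 on the log2 scale, beside 0.01 over all tested genes, and 0.55 beside 0.67 under ERCC scaling.

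Several low genes act in chromatin or transcription. Alh (FBgn0261238), the fly homologue of the AF10 and AF17 leukaemia fusion partners, was at 227, 257 and 202 CPM at 24 h, 128, 188 and 114 CPM at 36 h, 139, 159 and 98.3 CPM at 50 h and 262, 253 and 268 CPM at 84 h. Every middle library was below 190 CPM and every end library above 200 CPM, a 1.78-fold difference (-0.83 ± 0.14 log2, adjusted p = 7.33e-04, edgeR). Wde, a cofactor of H3K9 methylation (1.51-fold), and SuUR, the suppressor of underreplication (1.51-fold), were lower relative to other genes and above 0 with ERCC scaling, and SuUR lost the call in 8 of the 12 leave-outs (adjusted p 0.0503 to 0.105). The homeobox gene NK7.1 was at 38.7 to 55.8 against 61.2 to 102 CPM (1.66-fold, adjusted p = 0.00798, edgeR).

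Xrp1 (FBgn0261113), a bZIP factor of stress responses and cell competition, was at 629.7 to 1285 CPM in the middle libraries and 1322 to 1918 CPM at the ends (1.59-fold, adjusted p = 0.0111, edgeR), a contrast of -0.67 ± 0.15 that was 0.11 with ERCC scaling. Genes of RNA handling had differences of like size: eIF4G2, a translation initiation factor paralogue best known from the male germline (1.57-fold), CG11486 (PAN3, a deadenylase subunit, 1.61-fold), Nxf3 (an RNA export factor known from the germline, 1.62-fold) and CG13900 (Sf3b3, a splicing factor subunit, 1.38-fold). All 4 were above 0 with ERCC scaling, as were the Golgi protein lva (1.55-fold), RhoGEF3 (1.54-fold), dbr (1.58-fold) and CG1516 (PCB, pyruvate carboxylase, 1.51-fold). The adjusted p of these 8 lay between 7.31e-04 and 0.0347 (edgeR). Nxf3 lost the call in 8 of the 12 leave-outs (adjusted p 0.0514 to 0.103) and CG13900 in 5 (0.0525 to 0.089).

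The uncharacterised low genes were CG6791, at 66.1 to 96 CPM in the middle libraries and 101 to 161 CPM at the ends (1.67-fold, adjusted p = 0.00159, edgeR), CG15099 (1.67-fold, adjusted p = 0.0154, edgeR) and CG11970 (1.45-fold, adjusted p = 0.0238, edgeR). The last pair lay above 0 with ERCC scaling. CG15099 lost the call without the third 50 h library (adjusted p = 0.0538, edgeR) and CG11970 in 5 of the 12 leave-outs (0.0518 to 0.0744). The lowest mean was at 50 h in 15 of the 23 low genes and at 36 h in 8.

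**Figure D3:**
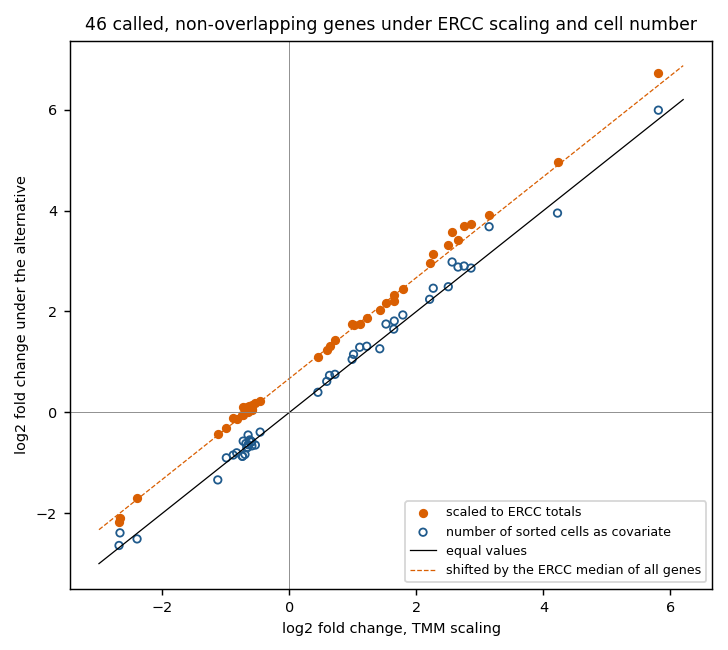
Log2 contrast of the 46 genes under TMM scaling (x axis) against the same contrast scaled to ERCC totals (filled) or with sorted cell number as a covariate (open). ERCC values follow the dashed line, shifted by the median of all genes (0.67), which takes 13 low genes above 0, whereas with the cell covariate all 46 keep their direction.

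The number of sorted cells moved with the arms, since 36 h had 105, 115 and 132 cells, 50 h had 101 to 124 and the ends 93 to 105. With that number as a covariate all 46 genes kept their direction and 18 kept the call: dib, E(spl)m6-BFM, CG9335, Sip1, dally, chn, CR31386, nvy, Mmp2, Lrt and CR43334 higher, and wde, Nrt, CG6791, Alh, CG10283, CrebA and Adgf-A lower. In the 8 libraries with 100 to 106 cells, of which 1 is from 36 h, 17 of the 46 were called (8 higher, 9 lower), Sip1, Mmp2, CR31386, chn and CrebA among them, and all 46 kept their direction. This subset was chosen after seeing the data.

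The members were tested for differences inside each arm, which the choice had not used as a criterion but had limited. Between 84 and 24 h, 7 of the 46 (15.2%) were called, 6 of the 23 high (26.1%) and 1 of the 23 low (4.35%), against 18.9% of all tested genes. All 7 were lower at 84 h, namely Sip1 (-2.08 log2, adjusted p = 7.49e-06), dally (-2.04, 0.00205), CG9335 (-1.92, 0.0178), CR43334 (-1.27, 1.55e-04), CG10440 (-1.07, 0.0341), CG3011 (-0.90, 0.0028) and Nrt (-0.48, 0.0326), each a log2 difference and its adjusted p by edgeR. Between 50 and 36 h, 2 of the 46 (4.35%) were called, against 4.25% of all tested genes. These were CrebA (-1.42 log2, adjusted p = 0.0134, edgeR) and Adgf-A (-2.15 log2, adjusted p = 0.0118, edgeR), both lower at 50 h. Without the second or the third 84 h library 4 genes met the rule and differed between 84 and 24 h, and without any one 50 h library 1 did so between 50 and 36 h.

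**Figure D4:**
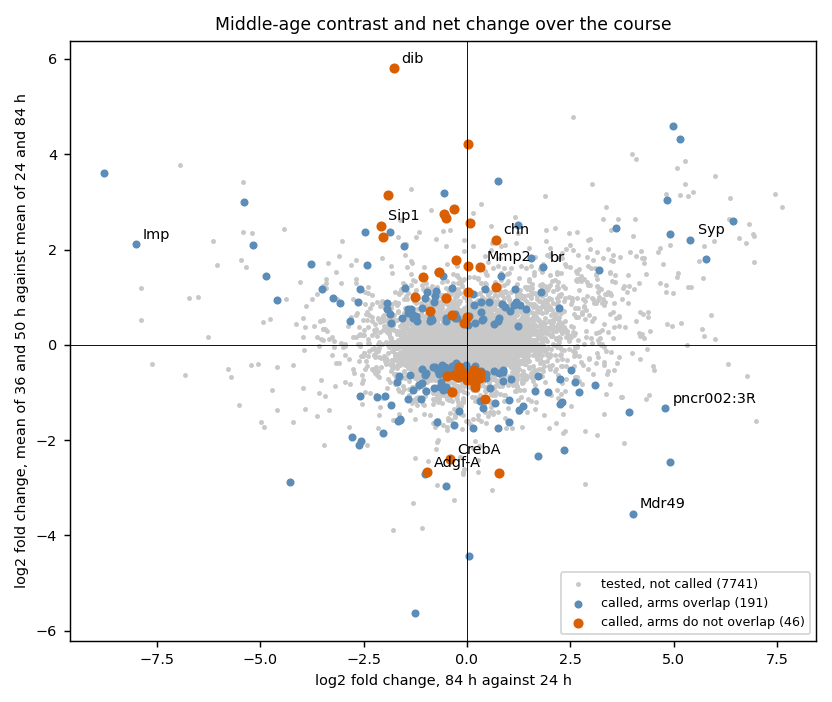
Each tested gene by its log2 fold change at 84 h against 24 h (x axis) and its contrast of the middle ages against both ends (y axis), with called genes whose arms overlap in blue. On the x axis the 23 low members (orange, below 0 on the y axis) had a median size of 0.20 and the 23 high members one of 0.52, beside 0.54 over all tested genes.

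The genes called higher with overlapping arms include the temporal factors. Imp stood lower at each later age, at 59082 ± 15264 CPM at 24 h, 35451 ± 6911 CPM at 36 h, 7149 ± 833 CPM at 50 h and 228 ± 49.95 CPM at 84 h, and Syp climbed to 50 h and was still high at 84 h, at 603 ± 130.3 CPM at 24 h, 11449 ± 4746 CPM at 36 h, 28560 ± 3018 CPM at 50 h and 25599 ± 6541 CPM at 84 h. Their contrasts of 2.12 ± 0.15 and 2.20 ± 0.17 therefore describe a late fall and an early rise, not a peak, and Imp's was -0.477 when age was ignored and only the arms were compared. Among the 14 tested temporal factors 7 were called higher and 2 lower (svp and Lin29), against 1.39% and 1.58% of all tested genes. Their median was 0.71 on the log2 scale against 0.01 over all tested genes, and 0 of the 14 were members. Of these 9 calls, mamo was lost without the first 50 h library (adjusted p = 0.0506, edgeR) and cas in 8 of the 12 leave-outs.

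EcR, br and Oatp74D, genes of the ecdysone response, had their highest level at 50 h. The importer of ecdysone Oatp74D was at 15.4, 23.8 and 8.53 CPM at 24 h, 127, 50.2 and 55 CPM at 36 h, 717, 569 and 704 CPM at 50 h and 51.96, 19.98 and 10.1 CPM at 84 h. All 50 h libraries were above 560 CPM and no other library exceeded 130 CPM, and its lowest middle library (50.2 CPM) was just under its highest end library (51.96 CPM). The contrast was 3.43 ± 0.45 (10.8-fold, adjusted p = 0.00413, edgeR). The receptor EcR was at 107 ± 8.39 CPM at 24 h, 172 ± 14.2 CPM at 36 h, 293 ± 42.9 CPM at 50 h and 134 ± 29.8 CPM at 84 h (1.87-fold, adjusted p = 7.26e-05, edgeR), and the ecdysone-induced factor br was at 94.1 ± 27.6 CPM at 24 h, 355 ± 136 CPM at 36 h, 851 ± 40.7 CPM at 50 h and 336 ± 58.3 CPM at 84 h (3.09-fold, adjusted p = 1.65e-06, edgeR). Of 19 tested genes of the ecdysone list 4 were higher (the fourth was Eip75B) and 1, ftz-f1, was lower (0.29 on the log2 scale, above 0, under ERCC scaling), with a median of 0.09. The shares over all tested genes were 1.39% higher and 1.58% lower. Eip75B lost the call in 7 of the 12 leave-outs and ftz-f1 in 9.

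The SoxB factor D, known as a temporal factor of intermediate progenitors, was at 24.5, 27.9 and 28.8 CPM at 24 h, 21.6, 64.4 and 52.2 CPM at 36 h, 55.7, 73.4 and 99.7 CPM at 50 h and 3.79, 5.26 and 5.56 CPM at 84 h (5.15-fold, adjusted p = 9.28e-07, edgeR). It was kept out of the members by 1 library, the first replicate at 36 h. The zinc-finger factor cas stood at 46.5 ± 33.1 CPM at 24 h, 91.9 ± 11.4 CPM at 36 h, 143 ± 72.6 CPM at 50 h and 16 ± 9.32 CPM at 84 h (4.2-fold, adjusted p = 0.0387, edgeR), a call lost in 8 of the 12 leave-outs (adjusted p up to 0.122). The Notch list had 4 of 23 tested members higher (Brd, E(spl)m3-HLH, neur and numb) and kuz lower (above 0 with ERCC scaling), beside 1.39% and 1.58% of all tested genes. Its median was 0.26 beside 0.01 over all tested genes. E(spl)m3-HLH and neur each lost the call in 9 of the 12 leave-outs, numb in 7, Brd in 3 and kuz in 2.

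The called cyclins and mitotic regulators other than feo had their highest mean at 50 h. CycA, the mitotic cyclin A, was at 245 ± 13.1 CPM at 24 h, 436 ± 54.5 CPM at 36 h, 783 ± 92.1 CPM at 50 h and 461 ± 19.6 CPM at 84 h (1.74-fold, adjusted p = 5.70e-05, edgeR). Of 35 tested cyclin and mitosis genes 5 were higher (CycA, CycE, fzy, stg and asp) and 1, feo, was lower under TMM scaling and above 0 under ERCC scaling, with a median of 0.18. Over all tested genes 1.39% were called higher and 1.58% lower. Leaving out 1 library ended the call of asp in 11 of the 12 fits, of stg in 8 and of CycE and fzy in 6 each (adjusted p up to 0.124, edgeR). CycA was called in all 12. Of the 34 replication and G1/S genes 3 were higher (RfC38, RnrL and E2f) and 0 lower, 32 had contrasts above 0 and the median was 0.29, against 51.7% of all tested genes above 0. The call of RfC38 ended in 11 of the 12 fits without 1 library (adjusted p up to 0.112, edgeR). RnrL and E2f were called in all 12. Under ERCC scaling 0 genes of either list were called, so CycA, RnrL and E2f lost the call too. The medians were then 0.86 for the cyclin and mitosis genes and 0.94 for the replication genes, beside 0.67 over all tested genes.

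Beside the lists that follow, 1.39% of all tested genes were called higher and 1.58% lower. Homeodomain and other patterning factors had 7 of 24 tested members higher, with chn, fd102C and elB the largest among those above 10 CPM, and CrebA lower (median 0.45). These 4 were called in all 12 leave-outs. Of the other higher genes, fru was not called in 10 of them, lab in 9 and hth and nab in 8 each. Of 19 Hippo and Fat pathway genes 3 were lower (kibra, ft and sd) and 0 higher, with a median of -0.09 that was 0.65 under ERCC scaling; ft and sd then lay above 0. With 1 library left out, ft was not called in 6 of 12 fits and sd in 8 (adjusted p up to 0.0908, edgeR). Kibra was called in all 12. Polycomb and trithorax genes had 2 of 29 lower (ash2 and trx, trx above 0 under ERCC scaling), with a median of -0.17 (0.52 under ERCC scaling). Trx lost the call without the third 36 h or the third 50 h library (adjusted p up to 0.0828, edgeR). Of the 82 tested cytosolic ribosomal protein genes 0 were called by edgeR or DESeq2 (4 at an unadjusted p under 0.05), with a median of -0.04 (0.61 under ERCC scaling). Of the 19 ribosome biogenesis genes 0 were called by either tool (0 at an unadjusted p under 0.05), with a median of 0.06. Under ERCC scaling all 30 list medians lay above 0, moved up by 0.54 to 1.03, and muscle markers came first in place of temporal factors.

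**Figure D5:**
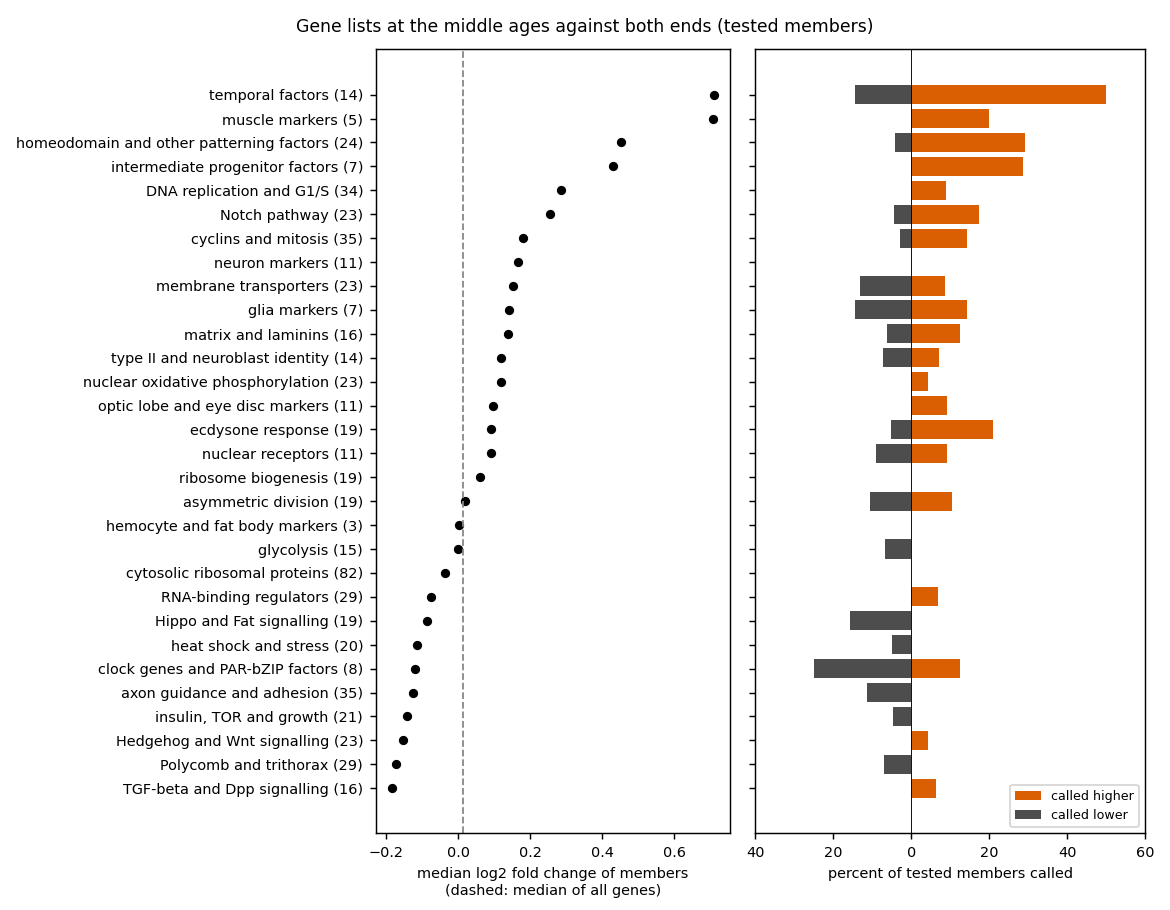
For 30 gene lists (number of tested members in brackets), the median log2 contrast of the members (left, dashed line at the median of all genes) and the percentage of tested members called higher or lower (right), under TMM scaling. Temporal factors and the 5 tested muscle markers had the largest medians (both 0.71 with TMM, and 1.41 and 1.74 with ERCC scaling). Over all tested genes 1.39% were called higher and 1.58% lower under TMM scaling.

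Markers of other cell types were summed per library. The neuron markers totalled 345 to 492 CPM at the middle ages and 406 to 528 CPM at the ends, with 0 of 11 tested members called by edgeR or DESeq2 (2 at an unadjusted p under 0.05). The glia markers totalled 523 to 692 CPM at the middle ages and 428 to 578 CPM at the ends; Eaat1 was higher (1.87-fold, adjusted p = 6.08e-05, edgeR), loco was lower (1.56-fold, adjusted p = 0.0416, edgeR, lost in 9 of the 12 leave-outs), and the defining glial genes repo, wrapper and gcm had means of at most 1.89 CPM at any age. Hemocyte and fat body markers totalled 32.5 to 69.7 CPM against 31.2 to 68.9 CPM. The part of other cells in the members' values was not tested.

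The rule sorts some genes on very small gaps. Just inside it were Dscam, dbr and CG13807 (not called, adjusted p = 0.114, edgeR), with log2 gaps between the nearest middle and end library of 0.0018 to 0.0057, where the 2 libraries are close to equal. Just outside were ken, elB and lid, with gaps of -0.0055 to -0.0047. ElB was called 2.72-fold higher (adjusted p = 9.11e-05, edgeR) with middle libraries of 31.2 to 111 CPM and end libraries of 11.9 to 31.4 CPM, and ken and lid were not called (adjusted p = 0.0573 and 0.0978, edgeR). In the authors' TPM values, 37 of the 45 members that could be matched were not overlapping on the same side, and 28 were called by limma.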

How the data were processed

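RNA from 12 pools of sorted type II neuroblasts was sequenced, 3 libraries at each of 4 ages. The authors deposited a table of raw counts per gene symbol and ERCC RNA, with no scaling in its values, and a table of TPM. Per the submitters' processing notes STAR 2.4.0i, Bowtie2 2.1.0, HTSeq 0.6.1p1, cutadapt 1.7.1 and CASAVA were used. No source used here gives the role of each, the strand setting or the gene lengths used for TPM. The builds named there differ from the reference at hand, so no coordinates are printed.

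The 92 ERCC rows were left out of library sizes, as was 1 row with no symbol (1.5e-05% of counts). No library had a count for 2616 of 15339 named genes. The quasi-likelihood test of edgeR 4.0.16 (R 4.3.3) was run with age as a factor of 4 levels, TMM factors, the robust option and 8 residual degrees of freedom. FilterByExpr, grouped by age, left 7978 genes (99.85% of gene counts), with a biological coefficient of variation of 36.2%. The contrast gave each age a weight of 0.5, as the mean of 36 and 50 h minus that of 24 and 84 h on the log2 scale. The p-values are two-sided, adjusted by Benjamini and Hochberg over all tested genes, with a threshold of 0.05. The SE was derived from the log2 difference and its F statistic. The steps were tested on simulated counts.

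Alternatives were DESeq2 1.42.0, its size factors, ERCC totals, no filter, a filter of 10 CPM, a replicate block, sorted cells as a covariate, 2 groups without age, a 1.5-fold threshold (glmTreat), limma 3.58.1 on log2(TPM + 1), and leaving out each library. Same-numbered libraries of different ages had deviations that correlated at -0.089 to 0.157 (median 0.0371), over 0.1 in 3 of 18 pairs. Differently numbered ones correlated at -0.127 to 0.131 (median -0.0163), over 0.1 in 1 of 36. These values do not settle whether the numbers pair libraries, and the main fit left them unpaired. Libraries of one age differed by more than sampling noise (chi-square per degree of freedom 10.69 to 48.11).

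The members and lists were chosen with earlier results of these data known. The rule for named genes took the 15 largest differences in each direction among members with a mean of at least 10 CPM, the 3 largest in each direction among numbered symbols, up to 4 called genes of each list, the main temporal factors and the genes at the border. Of the members, 1 is not reported here. All other members, zormin, stg, asp, nab, fru and ftz-f1 were named after their values were seen.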

Additional observations from a re-analysis of the deposited data

Results flagged for a closer look

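Within the arms of 45 members, 7 of the 90 arms tested had 1 library far from the other 5, by Dixon's ratio above its 95% critical value for 6 values; chance gives about 1 in 20, and each arm mixes libraries of both its ages. Among the middle libraries these were pnt in the second 36 h library (1072 CPM, others 590 to 716) and RnrL in the third 50 h library (240.7 CPM, others 165 to 186). Among the end libraries they were lva (123.8 CPM) and Adgf-A (54.67 CPM) in the second 24 h library, Xrp1 (1918 CPM) and dib in the first 24 h library, and kkv (19.08 CPM) in the second 84 h library. The dib value was 1 count (0.1494 CPM) with the other 5 end libraries at 0, which sets the ratio by itself and cannot be told from 0 at this depth.

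For 7 members the difference from the middle ages was not the same at both ends, since 84 h itself differed from 24 h by edgeR's test. The log2 difference of 84 h from 24 h was -1.92 for CG9335, -2.08 for Sip1, -2.04 for dally, -1.07 for CG10440, -1.27 for CR43334, -0.898 for CG3011 and -0.476 for Nrt. For 2 members it was not the same at both middle ages, with 50 h differing from 36 h by -1.42 for CrebA and -2.15 for Adgf-A.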

How the results depend on the processing

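The counts of genes called higher and lower at the middle ages (111 and 126) were 178 and 205 with DESeq2, 190 and 229 with no filter, 48 and 26 with sorted cells as a covariate, 36 and 33 in the 8 libraries with 100 to 106 cells (added after seeing the data), 26 and 13 beyond 1.5-fold, 7 and 3 with age ignored, and 66 and 43 on the authors' TPM; with ERCC totals 2 genes were lower. The counts of called genes that did not overlap (23 and 23) were 11 and 7 with the cell covariate, 9 and 3 beyond 1.5-fold and 7 and 3 with age ignored; 13 were high in the 8 libraries, 8 were low on TPM and 0 were low with ERCC totals. Genes high in all 4 pairwise tests (6) were 16 with no filter, 2 beyond 1.5-fold, 3 on TPM and 1 in the 8 libraries. Genes low in all 4 (1) were 2 with DESeq2, 9 with no filter, 4 with the replicate block, and 0 with ERCC totals, with the cell covariate and on TPM. With the replicate block 133 genes were higher and 163 lower. Members that differed between 84 and 24 h (7) were 11 with ERCC totals, and those between 50 and 36 h (2) were 5 with no filter and 0 with ERCC totals, on TPM and in the 8 libraries. The cause of these shifts was not tested, apart from the larger or smaller number of genes tested without a filter (12723) and of libraries in the subset (8).

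Leaving out 1 library at a time gave 82 to 158 genes higher and 72 to 173 lower, 20 to 39 high and 18 to 33 low called genes without overlap, 4 to 8 genes high and 1 to 3 low in all 4 pairwise tests, and 4 to 8 members that differed between 84 and 24 h and 1 to 3 between 50 and 36 h.

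Of 2063 alternative values of the 90 named genes, 1491 kept their direction and side of the threshold, 524 kept the direction but not the call, 19 gained a call and 29 changed sign. With ERCC totals the sign changed for Nxf3 (0.055), Xrp1 (0.106), dbr (0.0896), eIF4G2 (0.0816), lva (0.118), RhoGEF3 (0.0361), SuUR (0.0418), CG15099 (0.0984), feo (0.103), kuz (0.206), stau (0.164), ft (0.0958), sd (0.228), trx (0.276), elav (0.171), crq (0.739), cwo (0.0501), ken (0.27), lid (0.371). With age ignored Imp was -0.477. Uncalled crq, near 0 (-0.01), was 0.00822 with the 10 CPM filter, 0.0162 with age ignored, 0.0732 on TPM and -0.138 to 0.172 in leave-outs, and dm was -0.0247 to 0.115 in leave-outs. At this depth, genes under about 0.665 CPM cannot be told from 0 in a single library.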
